A study of Arabidopsis thaliana with 5 samples.

Results

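The 9 cellulose synthase genes CESA1, CESA2, CESA3, CESA4, CESA6, CESA7, CESA8, CESA9 and CESA10 were followed in developing seeds of the dof4.1-3 mutant and of wild type Col-0. They were taken from the gene table by their locus identifiers, 9 of 37336 genes, and all 9 were among the 19003 genes with enough counts to be tested. The dof4.1-3 line carries a T-DNA insertion in DOF4.1 (AT4G00940), a DOF-type transcription factor gene, and its 3 libraries were set against 2 libraries of the unmodified Col-0 ecotype, the background of the mutant. Seeds of both genotypes were labelled as harvested 9 days after pollination, although 10 days also appears in the sources, no other allele or treatment was given for either group, and the mutant label (dof4-1) stands for a single insertion line. No source used here says whether replicates came from separate plants, so the p-values reflect how far these libraries vary among themselves, which may be technical variation only.

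Cellulose is spun out at the plasma membrane by rosette complexes that combine 3 kinds of CESA protein. Primary wall complexes of growing cells use CESA1, CESA3 and a CESA6-type subunit, a place that CESA2, CESA5 and CESA9 can share with CESA6, while CESA10 is the closest relative of CESA1. Secondary wall complexes, best known from xylem and fibres, use CESA4, CESA7 and CESA8, whose mutants have collapsed xylem. In the seed coat, whose epidermal cells make mucilage and then a thick inner wall, CESA2 and CESA9 have known roles in wall thickening, and with CESA10 they are called the seed coat group here.

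The libraries held 20101091 to 21722055 counts in dof4.1-3 and 16500028 to 17049283 in Col-0, of which the 9 CESA genes took between 0.0811% and 0.132%. DOF4.1 had 3, 4 and 4 counts in dof4.1-3 and 1 and 14 in Col-0, too few to check the genotype labels. Seed markers were present: the seed coat laccase TT10 lay between 545 and 988 CPM and the embryo oleosin OLEO1 at 7679 CPM or more in all 5 libraries, where CPM is the number of counts per 1000000 counts of a library, scaled by trimmed mean of M-values (TMM). The storage protein genes (cruciferins and 2S albumins) took 14.0%, 28.2% and 19.0% of the counts in dof4.1-3, against 9.82% and 6.12% in Col-0. These are whole seeds, so fewer cells of a type and less RNA per cell cannot be told apart. The part of this difference in maturation genes in any CESA result was not tested.

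Because the CESA genes are related, the stretch around the catalytic QxxRW motif shows how far a short read can tell them apart. The 45 bases of coding sequence around that motif are given 5′ to 3′ for the 2 closest pairs, for CESA6 and for a secondary wall gene (TAIR10.1, RefSeq annotation), with the codons of QxxRW in capitals.
CESA1 (chr4:15641853-15641897, minus strand): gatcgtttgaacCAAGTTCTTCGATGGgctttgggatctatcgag
CESA10 (chr2:10867907-10867951, minus strand): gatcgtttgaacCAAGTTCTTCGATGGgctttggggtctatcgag
CESA6 (chr5:25885373-25885417, plus strand): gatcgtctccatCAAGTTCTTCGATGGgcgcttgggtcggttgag
CESA2 (chr4:18301003-18301047, plus strand): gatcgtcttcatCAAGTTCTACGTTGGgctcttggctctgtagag
CESA9 (chr2:9288576-9288620, plus strand): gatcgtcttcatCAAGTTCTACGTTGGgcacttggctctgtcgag
CESA7 (chr5:5737698-5737742, minus strand): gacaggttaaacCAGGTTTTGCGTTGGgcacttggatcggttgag
In this window CESA1 and CESA10 differed at 1 base and CESA2 and CESA9 at 2 bases. Over the whole coding sequence CESA1 and CESA10 were 83.9% identical and CESA2 and CESA9 84.4% identical. The longest run of identical bases in their transcripts was 38 for CESA1 and CESA10 and 41 for CESA2 and CESA9. No 2 of the 9 transcripts shared a run of 50 bases, the length of one end of the paired reads, so a full-length read without errors fits only 1 of them. CESA6 and CESA5, a further CESA gene of the table, shared 1 such run. Counting ignored strand, and 6 of the 9 genes overlap an annotated neighbour. Measured on whole gene spans, introns included, the overlap was 562 bases in CESA8 and 28 to 89 bases in CESA1, CESA3, CESA4, CESA7 and CESA10. Reads that fit both genes there fall under the ambiguous reads of the counting.

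CESA10 was the most abundant CESA transcript of these seeds in both genotypes, and CESA9 had the lowest mean in both. Compared per kilobase of exon, which puts genes of different length on 1 scale, CESA10 averaged 82.6 ± 10.2 CPM per kb in dof4.1-3 (SD, n = 3) and 130.2 ± 7.50 in Col-0 (SD, n = 2). The primary wall genes CESA3 and CESA1 followed, with 50.7 and 40.0 CPM per kb in dof4.1-3, against 56.1 and 35.5 in Col-0. These first 3 places did not overlap with their neighbours in the ranges over libraries of either genotype. CESA2 came next by its mean among the 9 genes, with 20.0 CPM per kb in dof4.1-3 and 15.7 in Col-0, and it overlapped with CESA4 in both genotypes. CESA5, outside the 9 genes and not part of this order, averaged 18.05 CPM per kb in dof4.1-3. In Col-0 it averaged 21.45, above CESA2. CESA6 averaged 15.1 CPM per kb in dof4.1-3, just after CESA2, and 9.14 in Col-0, behind CESA4 and CESA7, of which only CESA7 overlapped with it in Col-0. In dof4.1-3 the range of CESA4, from 7.95 to 26.4, took in those of both CESA2 and CESA6. CESA4, CESA7 and CESA8 averaged 14.9, 10.5 and 7.68 CPM per kb in dof4.1-3, against 12.9, 11.3 and 7.74 in Col-0, and CESA9 averaged 4.37 in dof4.1-3 and 3.00 in Col-0. In dof4.1-3 the ranges of CESA8 and CESA9 overlapped, and replicate 1 held less CESA8 than CESA9.

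**Figure D1:**
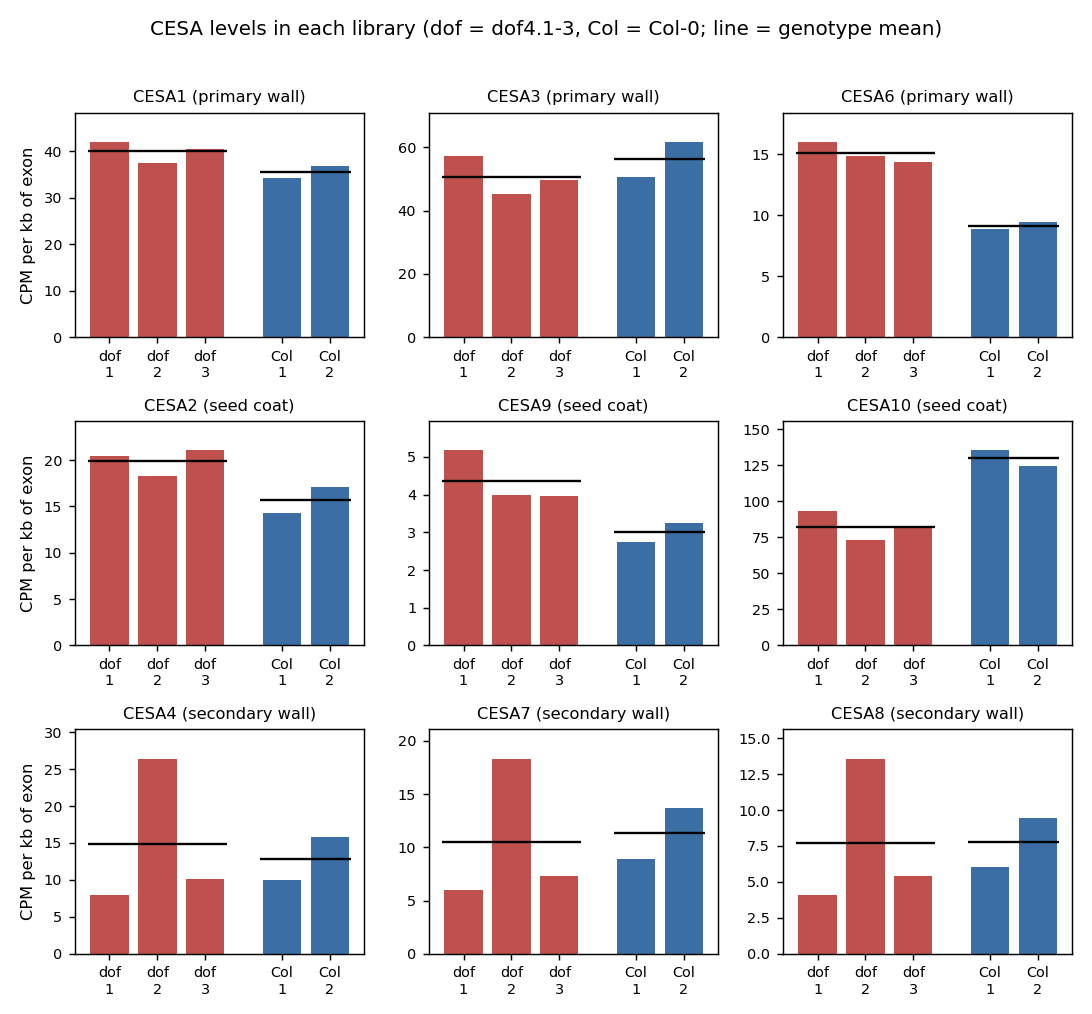
Level of each CESA gene in CPM per kilobase of exon (y axis, own scale from 0 in each panel) in the 3 dof4.1-3 libraries (red) and the 2 Col-0 libraries (blue), with horizontal lines at the genotype means. CESA6 and CESA10 separate the genotypes in opposite directions, whereas CESA4, CESA7 and CESA8 have a tall bar in dof4.1-3 replicate 2, at 26.4, 18.3 and 13.6 CPM per kb.

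CESA6 (AT5G64740, chr5:25881033-25886728, plus strand, 13 coding exons), a subunit of primary wall complexes in expanding cells, had higher values in dof4.1-3 than in Col-0. It had 66.7, 61.9 and 59.8 CPM in the dof4.1-3 libraries, against 36.9 and 39.3 CPM in Col-0. The lowest mutant library lay well above the higher Col-0 library, and the groups did not overlap. The fitted difference was 1.65-fold (log2 0.72, 95% interval 0.31 to 1.13), with an adjusted p of 0.101 by edgeR's quasi-likelihood test, which misses the threshold of 0.05, and of 0.0134 by DESeq2, which passes it. The log2 difference lay between 0.68 and 0.77 with any 1 library left out. With a trend over transcript length removed from each library it was 0.43 (adjusted p = 0.293, edgeR).

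CESA10 (AT2G25540, chr2:10866822-10872243, minus strand, 14 coding exons), the relative of CESA1 in the seed coat group, had lower values in dof4.1-3. Its levels were 334.9, 262.5 and 292.1 CPM in dof4.1-3, against 486.6 and 448.5 CPM in Col-0. All 3 mutant libraries lay below both Col-0 libraries. The log2 difference was -0.66 (95% interval -1.14 to -0.17), with an adjusted p of 0.181 by edgeR's quasi-likelihood test and 0.0374 by DESeq2. With the length trend removed it was -0.94 (adjusted p = 0.0943, edgeR), and it lay between -0.75 and -0.57 with any 1 library left out.

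The remaining CESA6-type genes of the seed coat group lay on the same side as CESA6. CESA9 (AT2G21770, chr2:9284391-9289744, plus strand, 13 coding exons), known from the secondary wall of seed coat epidermal cells, had 20.5, 15.8 and 15.7 CPM in dof4.1-3, against 10.9 and 12.9 CPM in Col-0. The groups did not overlap, and the log2 difference of 0.54 (95% interval 0.06 to 1.03) had an adjusted p of 0.265 by edgeR's quasi-likelihood test. CESA2 (AT4G39350, chr4:18296388-18302192, plus strand, 13 coding exons), which acts with CESA9 and CESA5 in that wall, had 86.8, 77.9 and 89.5 CPM in dof4.1-3, against 60.6 and 72.8 CPM in Col-0. Again no mutant library fell within the Col-0 values, but the log2 difference of 0.34 (95% interval -0.09 to 0.78) had an adjusted p of 0.422 by the same test. With the length trend removed the log2 differences were 0.27 for CESA9 and 0.07 for CESA2 (edgeR adjusted p = 0.486 and 0.895). CESA5 (AT5G09870), outside the 9 genes and given only for comparison, had 82.2, 69.4 and 72.5 CPM in dof4.1-3, against 87.9 and 89.6 CPM in Col-0 (log2 -0.25, edgeR adjusted p = 0.548). It was thus the CESA6-type gene with mutant values below Col-0.

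The core subunits CESA1 (AT4G32410, chr4:15640490-15646844, minus strand, 14 coding exons) and CESA3 (AT5G05170, chr5:1530132-1535558, minus strand, 14 coding exons), found in every primary wall complex, showed small differences with intervals that include 0. CESA1 had 177.4, 158.0 and 171.4 CPM in dof4.1-3, against 144.5 and 155.5 CPM in Col-0. These groups were separated by less than 3 CPM, and the log2 difference was 0.17 (95% interval -0.27 to 0.61; edgeR adjusted p = 0.702). CESA3 had 219.3, 172.5 and 189.6 CPM in dof4.1-3, against 193.6 and 235.8 CPM in Col-0. The groups overlapped, with a log2 difference of -0.15 (95% interval -0.63 to 0.33; edgeR adjusted p = 0.771). With the length trend removed the log2 differences were -0.12 for CESA1 and -0.42 for CESA3 (edgeR adjusted p = 0.814 and 0.299).

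Over the 9 genes, edgeR called 0 higher and 0 lower in dof4.1-3, where 0.121% of all tested genes were called higher and 0.963% lower. At an unadjusted p under 0.05, 2 CESA genes were higher (CESA6 and CESA9) and 1 lower (CESA10), beside 6.33% and 9.52% of all tested genes. DESeq2 called CESA6 higher and CESA10 lower, 1 gene each way, where it called 1.27% of its tested genes higher and 3.04% lower, and limma-voom called 0 of the 9. In 4 genes (CESA1, CESA2, CESA6 and CESA9) every mutant library lay above the 2 wild type ones, as in 16.3% of all tested genes, and in 1 gene (CESA10) all lay below, as in 18.3%. CESA genes are long, and long transcripts had higher values in dof4.1-3 across the whole table: the 950 tested genes with transcripts of 3347 to 4247 bases, the range of the CESA genes, had a median log2 difference of 0.29, against 0.03 for all tested genes, and 25.3% of these had all mutant libraries above Col-0 and 3.47% all below. The median of the 9 CESA genes was 0.17. The part of transcript length in these differences was not tested beyond the fit with its trend removed.

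**Figure D2:**
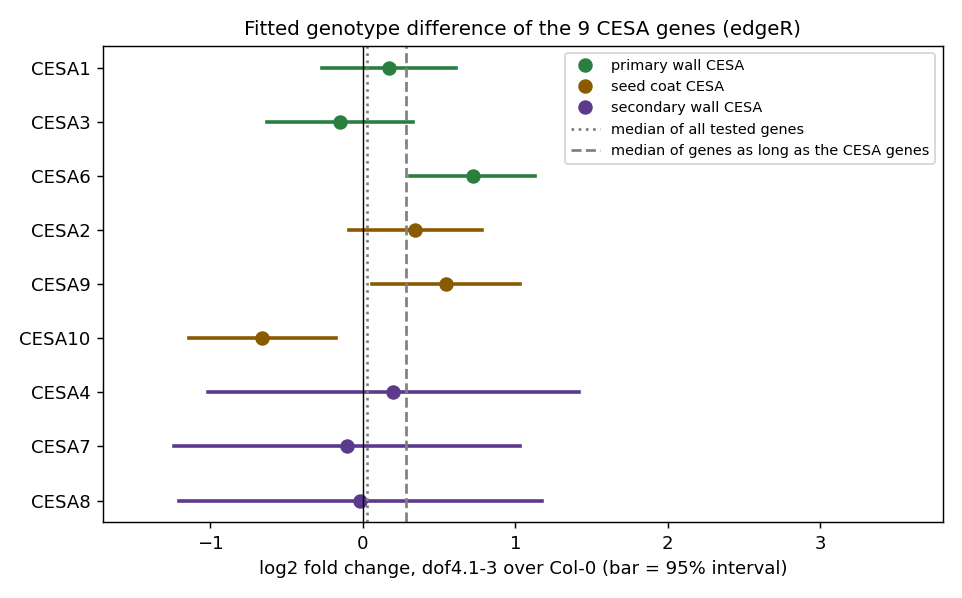
Fitted log2 fold change of dof4.1-3 over Col-0 (x axis; points with 95% intervals) for the 9 CESA genes (y axis), with the median of all tested genes (dotted line, 0.03) and of the 950 genes of the same transcript length (dashed line, 0.29). CESA6 and CESA9 have intervals above 0 and CESA10 has one below 0, while CESA4, CESA7 and CESA8 have the widest intervals of the 9.

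Ratios between genes within 1 library do not depend on how libraries are scaled to each other. The ratio of CESA6 to CESA10 per length was 0.172, 0.203 and 0.176 in dof4.1-3, against 0.0654 and 0.0755 in Col-0. All mutant ratios were thus above both Col-0 ratios. CESA10 stood to its close relative CESA1 at 2.22, 1.95 and 2.00 in dof4.1-3, against 3.96 and 3.39 in Col-0, and CESA6 stood to CESA1 at 0.381, 0.396 and 0.353 in dof4.1-3, against 0.259 and 0.256 in Col-0. In each of these ratios the genotypes did not overlap, but the same held for most of the ratios computed. CESA1 to CESA3 was 0.733, 0.830 and 0.819 in dof4.1-3, against 0.676 and 0.598 in Col-0. CESA4 to CESA7 was 1.325, 1.442 and 1.392 in dof4.1-3, against 1.123 and 1.152 in Col-0. The ratio of CESA9 to CESA2 overlapped, with 0.253, 0.217 and 0.188 in dof4.1-3, against 0.192 and 0.190 in Col-0. That of CESA7 to CESA8 overlapped too, with 1.464, 1.350 and 1.358, against 1.472 and 1.452. No test was made of these ratios, which were chosen after the values of the genes were seen.

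**Figure D3:**
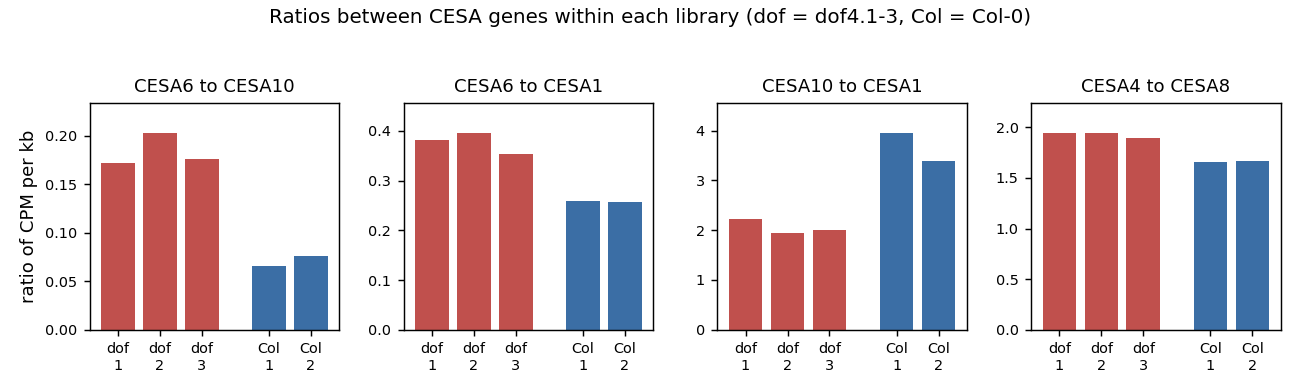
Ratio of CPM per kilobase between pairs of CESA genes (y axis, from 0) in the 3 dof4.1-3 libraries (red) and the 2 Col-0 libraries (blue). The ratio of CESA6 to CESA10 is 0.172 to 0.203 in dof4.1-3 and 0.0654 and 0.0755 in Col-0, whereas that of CESA4 to CESA8 varies little within a genotype, at 1.89 to 1.95 in dof4.1-3 and 1.65 and 1.67 in Col-0.

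The secondary wall genes CESA4 (AT5G44030, chr5:17714390-17719723, plus strand, 11 coding exons), CESA7 (AT5G17420, chr5:5736630-5741500, minus strand, 12 coding exons) and CESA8 (AT4G18780, chr4:10312624-10316886, minus strand, 12 coding exons) varied together between libraries of the same genotype by more than they differed between genotypes. CESA4 had 30.0, 99.6 and 38.4 CPM in dof4.1-3, against 37.7 and 59.5 CPM in Col-0. CESA7 had 20.4, 62.3 and 24.9 CPM in dof4.1-3, against 30.3 and 46.7 CPM in Col-0. CESA8 had 13.7, 45.4 and 18.0 CPM in dof4.1-3, against 20.2 and 31.6 CPM in Col-0. In all 3 genes dof4.1-3 replicate 2 was the highest library, Col-0 replicate 2 came next, and dof4.1-3 replicate 1 was the lowest, so the groups overlapped. The log2 differences were 0.20 for CESA4 (95% interval -1.02 to 1.42), -0.10 for CESA7 (-1.24 to 1.03) and -0.02 for CESA8 (-1.20 to 1.17), with edgeR adjusted p of 0.880, 0.938 and 0.991. Without dof4.1-3 replicate 2 the same differences were -0.50, -0.76 and -0.71 (edgeR adjusted p = 0.239, 0.0868 and 0.125).

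The highest of the 5 libraries held 3.32 times the lowest for CESA4, 3.05 times for CESA7 and 3.31 times for CESA8, whereas this span was between 1.23 for CESA1 and 1.89 for CESA9 among the other 6 genes. Among the 13270 other genes compared (those with a mean of at least 5 CPM), CESA8 had the profile over the 5 libraries closest to that of CESA7, at a root mean square distance of 0.05 on the log2 scale after centring each gene on its own mean. The next were AT2G28315, annotated as a nucleotide sugar transporter family protein, at 0.08, and AT5G48560, a bHLH protein gene, at 0.09. From CESA4, CESA8 stood at rank 2 and CESA7 at rank 3 in the same order. Libraries are the only points in these profiles, so the likeness rests on 5 values.

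Part of the other secondary wall genes had the same highest and the same lowest library, dof4.1-3 replicates 2 and 1. This held for 6 of the 10 xylan and lignin genes, 2 of 11 wall proteins of cellulose deposition and 2 of 8 tested secondary wall regulators, beside 5.43% of all tested genes, a count made after the values were seen. The other 4 xylan and lignin genes, IRX7, IRX9, IRX10 and IRX14, had their highest value in a Col-0 library, as had 6 wall proteins, FLA11 among them, and 5 regulators. LAC4, LAC17 and COBL4 are given here as examples that share the pattern and were picked for it. LAC4, a laccase of lignin formation, had 31.8, 128.6 and 60.9 CPM in dof4.1-3, against 48.4 and 77.8 CPM in Col-0. COBL4, a COBRA-like protein of secondary walls, had 9.39, 40.9 and 14.5 CPM in dof4.1-3, against 18.7 and 24.5 CPM in Col-0. LAC17, another lignin laccase, had its highest value in the same library, 30.0 CPM in dof4.1-3 replicate 2, and its lowest, 5.92 CPM, in dof4.1-3 replicate 1. Of the xylem marker list (XCP1, XCP2, VND7 and MYB46) 3 of 4 genes were tested and 0 called, and none was at 0 in a library. Its summed level was 3.83, 9.71 and 3.74 CPM in dof4.1-3, against 8.57 and 9.60 CPM in Col-0, with dof4.1-3 replicate 2 the highest mutant library. Most of the mutant sums came from XCP2, with 2.37, 6.78 and 2.13 CPM. XCP1 and MYB46, both under 2 CPM, were also highest in replicate 2 among the mutant libraries, whereas VND7 was highest in replicate 1, at 0.228 CPM. The pollen markers LAT52 and VGD1 summed to 3.78, 11.6 and 2.70 CPM in dof4.1-3, against 14.2 and 8.58 CPM in Col-0. The part of vascular or other tissue, or of seed age, in the spread of CESA4, CESA7 and CESA8 was not tested.

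**Figure D4:**
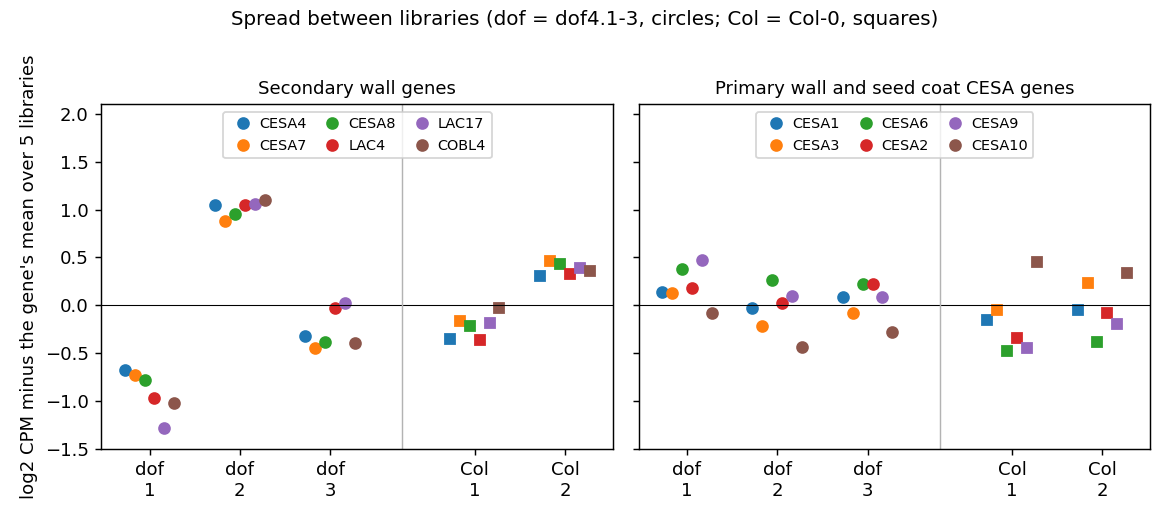
Log2 CPM of each gene minus its mean over the 5 libraries (y axis) in the dof4.1-3 libraries (circles) and the Col-0 libraries (squares), for CESA4, CESA7 and CESA8 with LAC4, LAC17 and COBL4, which were picked because they share the pattern (left), and for the other CESA genes (right). These 6 genes peak in dof4.1-3 replicate 2 and are lowest in dof4.1-3 replicate 1, and in the right panel CESA10 and CESA6 lie on opposite sides of 0 in Col-0.

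As a share of the summed level of the 9 CESA genes per length, the primary wall group CESA1, CESA3 and CESA6 made up 45.7%, 38.8% and 44.7% in dof4.1-3, against 34.6% and 36.9% in Col-0. CESA5 enters none of the shares and sums given here. All mutant shares were above both Col-0 shares, but the summed level of the group overlapped, with 115.3, 97.4 and 104.5 CPM per kb in dof4.1-3, against 93.7 and 107.9 in Col-0. The seed coat group CESA2, CESA9 and CESA10 made up 47.1%, 38.0% and 45.5% in dof4.1-3, against 56.2% and 49.7% in Col-0, and CESA10 carried most of it. The secondary wall group took 7.15%, 23.2% and 9.79% in dof4.1-3, against 9.20% and 13.3% in Col-0, and these ranges overlapped. The mean log2 level of the secondary wall group minus that of the primary wall group was -1.75 ± 0.99 in dof4.1-3 (SD, n = 3) and -1.37 ± 0.34 in Col-0 (SD, n = 2), a difference of -0.38 that is smaller than the spread in dof4.1-3. Summed over all 9 genes the level was 252.3, 251.1 and 233.8 CPM per kb in dof4.1-3, against 271.2 and 292.1 in Col-0.

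**Figure D5:**
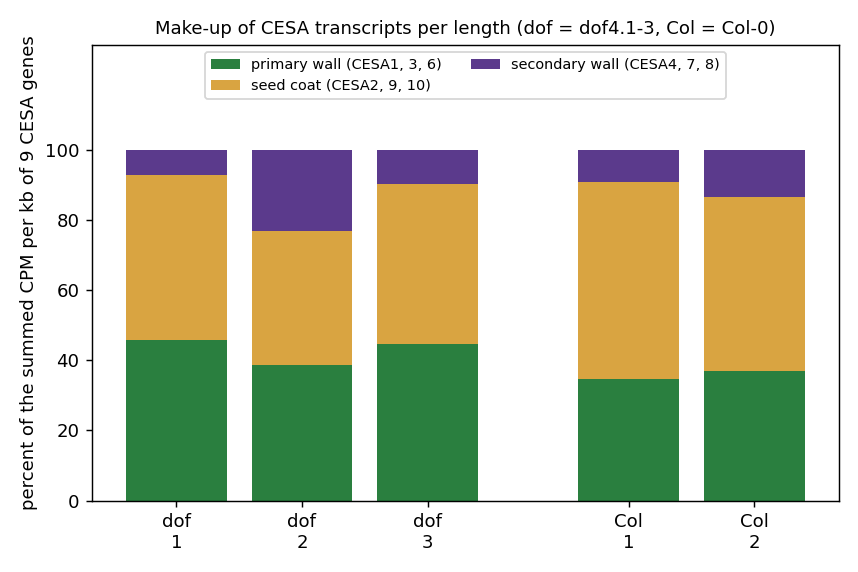
Percent of the summed CPM per kilobase of the 9 CESA genes (y axis) that fell to the primary wall, seed coat and secondary wall groups in each dof4.1-3 library (left) and each Col-0 library (right). The secondary wall share runs from 7.15% to 23.2% within dof4.1-3, and the seed coat share is 47.1% or less in dof4.1-3 and 49.7% or more in Col-0.

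Profiles most like CESA1 over the 5 libraries were those of SNX1, a sorting nexin (distance 0.02), TRB3, a telomere repeat binding protein (0.02), and AT1G55880 (0.02). For CESA9 they were GPDHC1 (0.03), AT3G60320 (0.04) and AT1G72410 (0.04). None of these 6 is a CESA gene, unlike the nearest profile of CESA7.

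Upstream sequence is shown for CESA6 and CESA10, the 2 genes called by DESeq2, and for CESA7 and CESA8. These are the secondary wall genes with the closest profiles over the libraries, not the closest in sequence. The core AAAG was marked because the mutated factor belongs to the DOF class, whose members bind it. The 250 bases before the annotated transcript start are given 5′ to 3′ on the gene's strand (TAIR10.1, RefSeq), with AAAG on either strand (read as AAAG or CTTT) in capitals.
CESA6 (chr5:25880783-25881032, plus strand): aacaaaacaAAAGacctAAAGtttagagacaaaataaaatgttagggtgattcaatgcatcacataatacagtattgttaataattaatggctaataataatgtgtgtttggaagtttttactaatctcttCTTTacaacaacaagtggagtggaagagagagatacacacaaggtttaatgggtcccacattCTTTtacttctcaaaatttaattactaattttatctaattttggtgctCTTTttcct
CESA10 (chr2:10872244-10872493, minus strand): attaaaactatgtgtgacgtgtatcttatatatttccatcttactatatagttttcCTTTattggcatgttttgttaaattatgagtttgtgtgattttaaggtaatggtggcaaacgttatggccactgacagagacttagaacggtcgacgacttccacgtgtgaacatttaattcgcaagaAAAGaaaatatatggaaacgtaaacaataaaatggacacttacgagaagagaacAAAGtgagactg
CESA7 (chr5:5741501-5741750, minus strand): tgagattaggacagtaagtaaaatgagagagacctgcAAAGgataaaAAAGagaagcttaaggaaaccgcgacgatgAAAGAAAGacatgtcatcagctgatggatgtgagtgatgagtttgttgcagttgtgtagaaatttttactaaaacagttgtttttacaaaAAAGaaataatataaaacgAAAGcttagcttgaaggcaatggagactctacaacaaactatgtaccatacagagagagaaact
CESA8 (chr4:10316887-10317136, minus strand): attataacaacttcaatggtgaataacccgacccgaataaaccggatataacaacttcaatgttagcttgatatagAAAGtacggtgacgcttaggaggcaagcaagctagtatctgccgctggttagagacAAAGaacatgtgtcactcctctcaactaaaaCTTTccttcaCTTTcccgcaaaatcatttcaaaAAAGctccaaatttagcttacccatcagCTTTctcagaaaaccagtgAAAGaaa
These windows held 5 matches for CESA6, 3 for CESA10, 6 for CESA7 and 7 for CESA8, where the median of 27443 windows of this length was 4 and 98.0% held at least 1. CESA9 had 10, a number reached by 1.54% of windows, and CESA4 had 8, reached by 7.14%. CESA2 and CESA3 had 4 each and CESA1 had 3. The CESA8 window overlaps exons of the non-coding gene AT4G06845 on the opposite strand. Sites of MYB46, a switch of secondary wall genes (ACCAACT or ACCAAAT or ACCAACC or ACCAAAC or ACCTACT or ACCTAAT or ACCTACC or ACCTAAC, on either strand), were matched once each in the windows of CESA4, CESA1 and CESA9, as in 29.4% of all windows with at least 1, and in none of the other 6. The matches are letters in a window and were not compared with the genotype differences.

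The proteins that work beside CESA subunits were examined as 6 lists. Of the cellulose synthase complex partners 10 of 12 genes were tested and 0 were called by edgeR (median log2 difference 0.13, against 0.03 for all tested genes). The endoglucanase KOR1, which is part of the complex, had 223.8, 253.9 and 220.7 CPM in dof4.1-3, against 333.8 and 318.6 CPM in Col-0 (log2 -0.49, edgeR adjusted p = 0.282). CSI3, which links complexes to microtubules, had a log2 difference of 1.03 (edgeR adjusted p = 0.151), and CC1, a companion protein of the complex, one of -0.38 (0.405). Of the cellulose synthase-like D genes 3 of 6 were tested and 0 called, with log2 differences of 0.09 for CSLD3, 0.03 for CSLD2 and 0.02 for CSLD5.

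Of 11 wall proteins of cellulose deposition, all tested, 1 was called and it was lower in dof4.1-3. This was FLA11 (AT5G03170), a fasciclin-like arabinogalactan protein of secondary walls, with 47.1, 68.7 and 54.1 CPM in dof4.1-3, against 120.0 and 119.2 CPM in Col-0. Its log2 difference was -1.08 (edgeR adjusted p = 0.0467, standard error 0.21) and, unlike CESA4, CESA7 and CESA8, its groups did not overlap. DESeq2 called FLA11 lower too (adjusted p = 0.000489). The call was lost with limma-voom (adjusted p = 0.0509), with upper-quartile factors, with at least 10 counts required in every library, with the length trend removed (also with the block) and without dof4.1-3 replicate 1, Col-0 replicate 1 or Col-0 replicate 2. FEI1, a receptor-like kinase of cellulose synthesis, had a log2 difference of 0.76 (edgeR adjusted p = 0.124, DESeq2 adjusted p = 0.0316) and CTL1, a chitinase-like protein, one of -0.55 (0.314). The median of the list was -0.26.

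Of the secondary wall regulators 8 of 11 were tested and 0 called (median -0.43). KNAT7, a homeodomain factor of secondary walls, had 46.7, 47.8 and 53.4 CPM in dof4.1-3, against 84.9 and 82.2 CPM in Col-0 (log2 -0.76, edgeR adjusted p = 0.0861, DESeq2 adjusted p = 0.00822). MYB61, a factor of mucilage and wall formation, had a log2 difference of -0.63 (edgeR adjusted p = 0.125, DESeq2 adjusted p = 0.0481), and NST3, a NAC factor that switches on secondary walls, one of -1.01 (0.275). The authors had already named KNAT7 and MYB61 as lower from the same data, as genes related to mucilage development. MYB46, VND7 and MYB83 were under 2 CPM in all 5 libraries. Of the 10 xylan and lignin genes, all tested, 0 were called (median -0.26), and the xylan genes IRX7, IRX9 and IRX10 had log2 differences of -0.64, -0.48 and -0.40 (edgeR adjusted p = 0.175, 0.351 and 0.409).

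The last list holds mucilage cell genes of the seed coat epidermis. Whether CESA10 is transcribed in those cells was not tested. Of the 16 genes of the list 15 were tested, 0 were called by edgeR, and all 15 had a negative log2 difference, with a median of -0.58. The gene left untested, MYB5, had 0 counts in all 5 libraries. In 12 of the 15 every mutant library lay below the Col-0 values, where 18.3% of all tested genes did so, and DESeq2 called 4 lower, where it called 3.04% of its tested genes lower. These 4 were MUM4, MUCI10, MUCI21 and PMEI6, which the authors had already named as lower from the same data. The list is therefore no independent sample of mucilage genes, and its counts are a description only. MUCI21, a mucilage glycosyltransferase, had 12.9, 17.0 and 12.5 CPM in dof4.1-3, against 23.8 and 25.9 CPM in Col-0 (log2 -0.81, edgeR adjusted p = 0.0971). PMEI6, a pectin methylesterase inhibitor, had a log2 difference of -1.54 (0.106), and MUM4, a rhamnose synthase of mucilage pectin, one of -0.77 (0.145). The log2 differences of the tested mucilage genes ran from -1.54 (PMEI6) to -0.05 (TTG2). CESA10, at -0.66, lay in this wide range, but so did CESA3 (-0.15), CESA7 (-0.10) and CESA5 (-0.25). CESA2 and CESA9, at 0.34 and 0.54, lay outside it. Of the seed coat marker list 4 of 5 genes were tested and 1, BAN, was called lower (log2 -1.85, edgeR adjusted p = 0.0105), and TT12 was at or near 0. The summed level of the list was 635, 565 and 664 CPM in dof4.1-3, against 1061 and 968 CPM in Col-0. TT10 alone made up 606, 545 and 625 CPM of these sums in dof4.1-3, and 988 and 892 CPM in Col-0. AHA10 stayed at 2.01 CPM or less, and its groups overlapped. The part of these marker differences in the CESA10 difference was not tested.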

How the data were processed

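RNA of developing seeds was sequenced by the authors as paired 50 nt reads, trimmed with cutadapt, checked with FastQC and mapped to TAIR10 with HISAT2, and the deposited values are raw htseq-count counts per gene, taken without strand. For tool versions and the annotation release, nothing is stated in the sources used. Of the table, 5 summary lines and 9 blank lines were left out. Reads in no gene made up 0.727% to 1.74% and ambiguous reads 3.10% to 3.92% of the reads counted. Depth was 16500028 to 21722055 gene counts per library.

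Genes were kept with filterByExpr, scaled by TMM and tested over all 19003 genes with edgeR 4.0.16 (robust quasi-likelihood test, genotype only) in R 4.3.3, with Benjamini-Hochberg adjustment and a threshold of 0.05. Levels between genes were compared as CPM per kilobase of merged exons, from the RefSeq annotation of TAIR10.1, which held 37051 of the 37336 identifiers. Distances between profiles used log2(CPM + 0.5). Intervals are 95%. The main edgeR fit and those of DESeq2 and limma-voom were tested on simulated counts with imposed differences. That simulation did not cover the removal of the length trend or the replicate block.

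The alternatives were DESeq2 1.42.0, which the authors used, limma-voom (limma 3.58.1), other scaling, other count filters (no filter, or at least 10 counts in every library), each library left out, the replicate number as a block and a lowess trend over transcript length (span 0.3) removed from each library. Leaving out both libraries numbered 2 was added after seeing the data.

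The genes and lists were chosen with earlier results of these data known. All 9 CESA genes are named. From each list the called genes with the smallest adjusted p (up to 4) are named, and where fewer than 3 were called also those with the smallest p until 3 were named. LAC4, LAC17, COBL4 and the regulators under 2 CPM were chosen after their values were seen.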

Additional observations from a re-analysis of the deposited data

How the results depend on the processing

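Each of the 9 CESA genes was refitted under 16 alternatives. Of these 144 fits 128 kept the direction and side of the threshold, 2 (CESA6 and CESA10 with DESeq2) passed it, and 14 changed the sign of a difference that was not called. CESA1 was -0.12 with the length trend removed and -0.15 with the replicate block and length trend removed, where CESA4 was -0.0615. Without both libraries numbered 2, CESA3 was 0.0775 and CESA4 -0.14. With 1 library left out, the log2 differences ran between -0.28 and 6e-04 for CESA3, between -0.50 and 0.57 for CESA4, between -0.76 and 0.24 for CESA7 and between -0.71 and 0.34 for CESA8, and the gap between secondary and primary wall groups between -0.93 and 0.02. The cause of these changes was not tested.

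The main counts over all genes were 23 higher and 183 lower, and over the 6 lists 0 and 1. DESeq2 called 1 CESA gene higher and 1 lower, 1 list gene higher and 7 lower, and 249 and 596 genes in all. Without a filter there were 170 and 565 in all and 3 list genes lower; with the length trend removed 10 and 44 and 0 list genes; with block and length trend 2 and 2 and 0 list genes; without both libraries numbered 2, 139 and 467 and 2 list genes lower. limma-voom, upper-quartile factors and at least 10 counts in every library left 0 list genes lower. With 1 library left out there were 0 to 181 higher and 0 to 707 lower in all, and 0 to 2 and 0 to 4 in the lists.

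Replicate numbers shared by the labels mark no stated batch. Deviations from the genotype means correlated at -0.25 between the libraries numbered 1 and -0.29 between those numbered 2. With only 2 Col-0 libraries their deviations mirror each other. Mutant replicate 1 with Col-0 replicate 2 therefore gave 0.25, and mutant replicate 2 with Col-0 replicate 1 gave 0.29. These values cannot show whether a replicate number marks a shared batch. The replicate block gave 29 genes higher and 175 lower, 2 list genes lower and 0 CESA genes. With 3 against 2 libraries the 95% intervals of CESA4, CESA7 and CESA8 reach log2 differences of 1.42, 1.03 and 1.17 on the upper side and -1.02, -1.24 and -1.20 on the lower, so changes up to those bounds are not excluded.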
